A study of Mus musculus with 12 samples.

Results

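The Toll-like and Fc receptor genes described here are Tlr2, Tlr3, Tlr4, Tlr7, the co-receptor Cd14, the adaptor Myd88 and the Fc receptor genes Fcgr1, Fcgr2b, Fcgr3 and Fcer1g. They were chosen by symbol, and all 10 were found among the 15397 genes of the deposited table. Striatal RNA was sequenced from 12 mice on a C57BL/6 background, as 3 mice in each of 4 groups: R6/2 mice on PLX3397, R6/2 mice on vehicle, wild-type mice on PLX3397 and wild-type mice on vehicle. R6/2 is a transgenic model of Huntington's disease that carries the first exon of mutant human huntingtin, and PLX3397 inhibits Csf1r, the receptor on which microglia depend for survival. The drug was given at 275 ppm in chow, and both treatments ran from week 7 to week 11 of age. The sex of the mice and the repeat length of the transgene were not given in the sources used here.

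Toll-like receptors bind molecules of microbes and of damaged cells. Tlr2 and Tlr4 do so at the cell surface, Tlr4 with the help of Cd14, while Tlr3 and Tlr7 bind double-stranded and single-stranded RNA in endosomes. Tlr2, Tlr4 and Tlr7 signal through the adaptor Myd88, and Tlr3 through the adaptor Ticam1. Fc receptors bind the constant part of antibodies: Fcgr1 with high affinity and Fcgr3 with low affinity, both activating through the immunoreceptor tyrosine motif of the Fcer1g chain, whereas Fcgr2b carries an inhibitory motif. In the brain these receptors are best known from microglia and border macrophages. Tlr3 and Myd88 are also made by other brain cells such as astrocytes.

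Promoters from RefSeq (GRCm38.p6, 250 bases before to 50 bases after the start site) were matched for 7 of the 10 genes, with 8 entries because Fcgr3 had a pair of start sites. Tlr4, Tlr7 and Cd14 are named only. The promoters of Fcgr3 and Fcgr1 are shown because both encode activating IgG receptors that use the Fcer1g chain, and because they hold a run of 14 identical bases, in capitals. It starts 10 bases before the start site in Fcgr3 (chr1:171059354-171059653, minus strand) and 59 bases before it in Fcgr1 (chr3:96293920-96294219, minus strand).
Fcgr3: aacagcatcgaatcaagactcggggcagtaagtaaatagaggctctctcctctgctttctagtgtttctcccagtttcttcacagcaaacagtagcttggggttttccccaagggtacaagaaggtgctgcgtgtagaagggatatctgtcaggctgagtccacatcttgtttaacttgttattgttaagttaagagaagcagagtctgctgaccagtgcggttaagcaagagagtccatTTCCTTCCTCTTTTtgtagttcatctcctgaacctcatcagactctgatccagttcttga
Fcgr1: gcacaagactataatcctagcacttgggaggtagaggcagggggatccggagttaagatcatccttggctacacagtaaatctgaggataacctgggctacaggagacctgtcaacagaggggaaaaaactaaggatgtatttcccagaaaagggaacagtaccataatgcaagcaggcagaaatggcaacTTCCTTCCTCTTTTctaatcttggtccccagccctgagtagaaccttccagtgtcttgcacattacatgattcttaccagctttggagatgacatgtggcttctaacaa
The run is the longest that these promoters share and was looked for after they had been compared, so its presence in both was set in advance. Searched on both strands, it lay in 5 of 32851 promoters, those of 4 of 27025 genes (0.0148%). These counts include Fcgr3 and Fcgr1. The share thus does not measure how particular the run is to these genes. The run contains TTCCTC, the reverse complement of GAGGAA, a core bound by factors of the Ets family such as Spi1. GAGGAA on either strand was in the promoters of 2 of the 7 matched genes, Fcgr3 and Fcgr1, and in those of 31.3% of all genes. The longer GAGGAAGT was in the promoters of 0 of the 7 and of 3.69% of all genes.

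The promoter of Myd88 (chr9:119339969-119340268, minus strand) is shown because Myd88 was the 1 of the 10 genes called between genotypes on vehicle. The capitals mark GAAAGCGAAA, which starts 40 bases before the start site and matches, on the other strand, the core of the interferon-stimulated response element (TTTC, any 2 bases, TTTC).
Myd88: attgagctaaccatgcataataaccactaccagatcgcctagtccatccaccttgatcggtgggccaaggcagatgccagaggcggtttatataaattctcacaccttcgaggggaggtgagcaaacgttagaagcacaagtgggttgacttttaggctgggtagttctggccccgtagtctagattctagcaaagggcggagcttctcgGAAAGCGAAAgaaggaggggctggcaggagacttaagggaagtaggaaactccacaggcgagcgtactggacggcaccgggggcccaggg
That core on either strand was in 3.99% of all genes' promoters and in 1 of the 7 matched here. These matches describe the letters of the windows only.

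Levels were deposited as log2 CPM (reads scaled to library size), and libraries held 18902120 to 24293208 reads assigned to genes. Csf1r, the target of the drug, averaged 0.12 ± 1.13 log2 CPM in R6/2 mice on PLX3397 against 6.84 ± 0.28 on vehicle, and 0.71 ± 1.52 in wild-type mice on PLX3397 against 6.66 ± 0.07 on vehicle (SD, n = 3 each). Of 24 microglial marker genes, 22 were called lower with the drug in R6/2 and 22 in wild type. All 10 listed astrocyte markers and all 10 endothelial ones were measured, but 1 of 10 monocyte and neutrophil markers and 2 of 14 lymphocyte and mast cell markers. Some libraries stood apart. Libraries 1 and 2 of R6/2 mice on PLX3397 had low values of Slc17a7, which loads glutamate into vesicles and is mostly cortical (2.79 and 3.06 log2 CPM). Library 1 of wild-type mice on PLX3397 was at 5.67, and the rest were at 7.30 to 9.86. The choroid plexus gene Ttr was high in library 1 of R6/2 mice on vehicle (12.1 log2 CPM) and library 1 of wild-type mice on the drug (9.89), beside 4.01 to 6.09 in the rest. Taken across genes, which are no replicates of each other, the change with PLX3397 was related to the GC content of the transcript with opposite sign in the genotypes (Spearman's rho -0.47 in R6/2 and 0.52 in wild type). In bulk striatum, fewer cells of a type and less RNA per cell cannot be told apart.

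**Figure D1:**
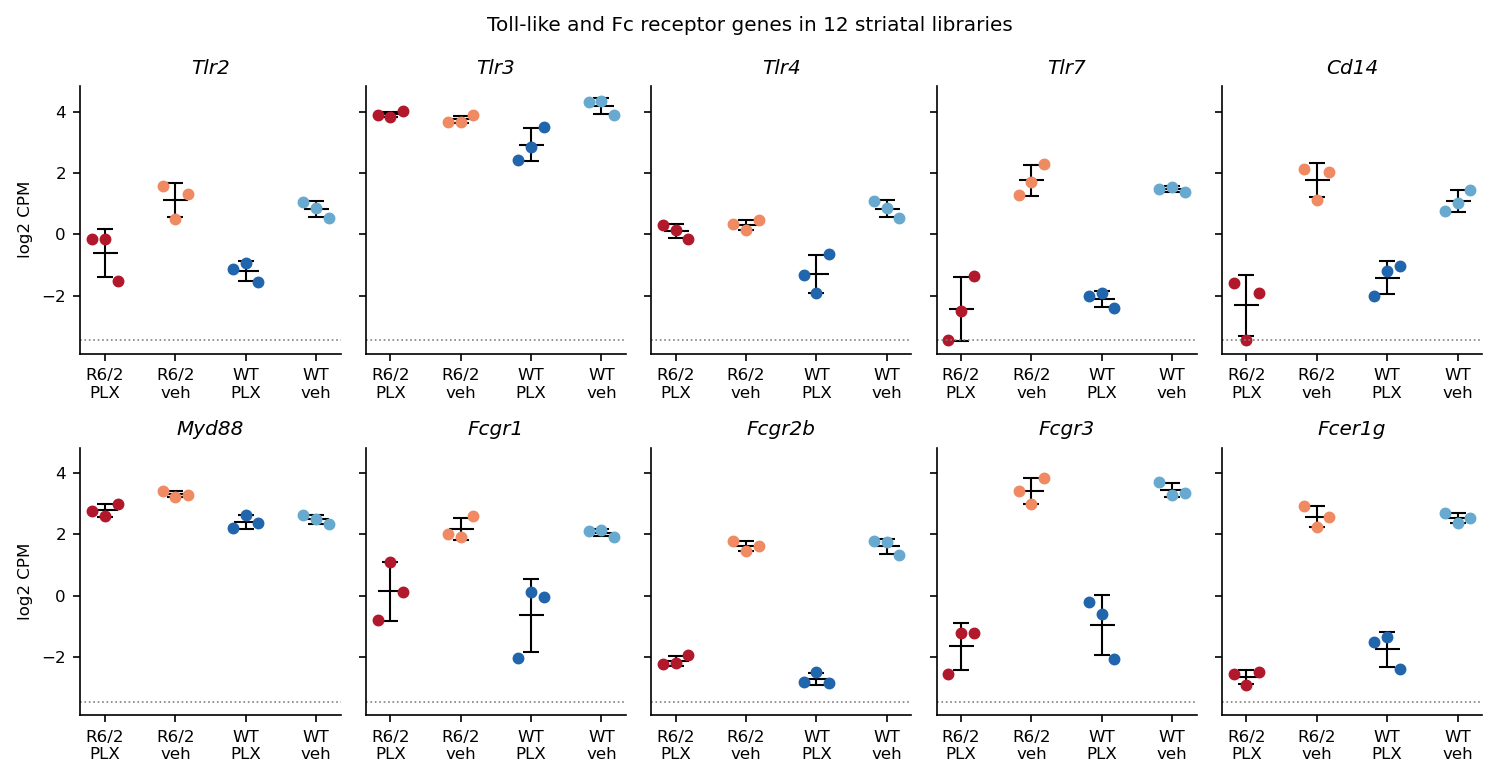
Log2 CPM of the 10 genes, one panel per gene, with 1 point per library, the mean and its SD (n = 3 per group). The dotted line at -3.46 is the value of a gene with 0 reads. Groups run from R6/2 PLX3397 to WT vehicle, and the PLX3397 points lie below the vehicle points of both genotypes in most panels but not in those of Tlr3, Tlr4 and Myd88.

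Per kilobase of exon (all annotated exons of a gene merged), the receptor genes with the highest level in vehicle-treated striatum were Fcer1g and Fcgr3. The order of the genes depends on this length, which is not that of a single transcript. In R6/2 mice on vehicle Fcer1g was at 6.84 ± 1.63 and Fcgr3 at 6.26 ± 1.83 CPM per kb, followed by Myd88 at 3.81 ± 0.26, Tlr3 at 2.56 ± 0.23, Cd14 at 1.99 ± 0.69 and Fcgr1 at 1.75 ± 0.49 (SD, n = 3 each). In wild-type mice on vehicle Fcer1g was at 6.55 ± 0.70, Fcgr3 at 6.31 ± 1.06, Tlr3 at 3.50 ± 0.60, Myd88 at 2.16 ± 0.22, Fcgr1 at 1.58 ± 0.12 and Cd14 at 1.19 ± 0.31 CPM per kb. Below these stood Tlr7, Tlr2, Fcgr2b and Tlr4 in both genotypes, at 0.84 to 0.21 CPM per kb in R6/2 and 0.66 to 0.31 in wild type. The ranges over libraries of Fcer1g and Fcgr3 overlapped in both genotypes, as did those of Cd14 and Fcgr1, of Tlr7 and Tlr2, and of Tlr2 and Fcgr2b, whereas Fcgr2b and Tlr4 did not overlap. Myd88 and Tlr3 did not overlap either and stood in opposite order in R6/2 and wild type.

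On PLX3397 the order changed, and Tlr3 and Myd88 stood above the other receptor genes in both genotypes. Tlr3 was at 2.88 ± 0.17 and Myd88 at 2.65 ± 0.37 CPM per kb in R6/2 mice, with overlapping ranges, and the next gene, Fcgr1, was at 0.45 ± 0.31 (SD, n = 3 each). In wild-type mice on the drug Myd88 was at 2.03 ± 0.33 and Tlr3 at 1.51 ± 0.57 CPM per kb, with overlapping ranges, and the next gene, Fcgr3, was at 0.29 ± 0.18. The summed level of the 10 genes was 24.4 to 27.0 CPM in R6/2 mice on PLX3397 against 48.3 to 65.7 on vehicle, and 12.02 to 18.6 CPM in wild-type mice on PLX3397 against 49.5 to 61.02 on vehicle. Tlr3 made up 57.8% to 60.5% of that sum in R6/2 mice on PLX3397 against 21.3% to 26.2% on vehicle, and 43.5% to 59.7% in wild-type mice on PLX3397 against 29.6% to 36.1% on vehicle.

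**Figure D2:**
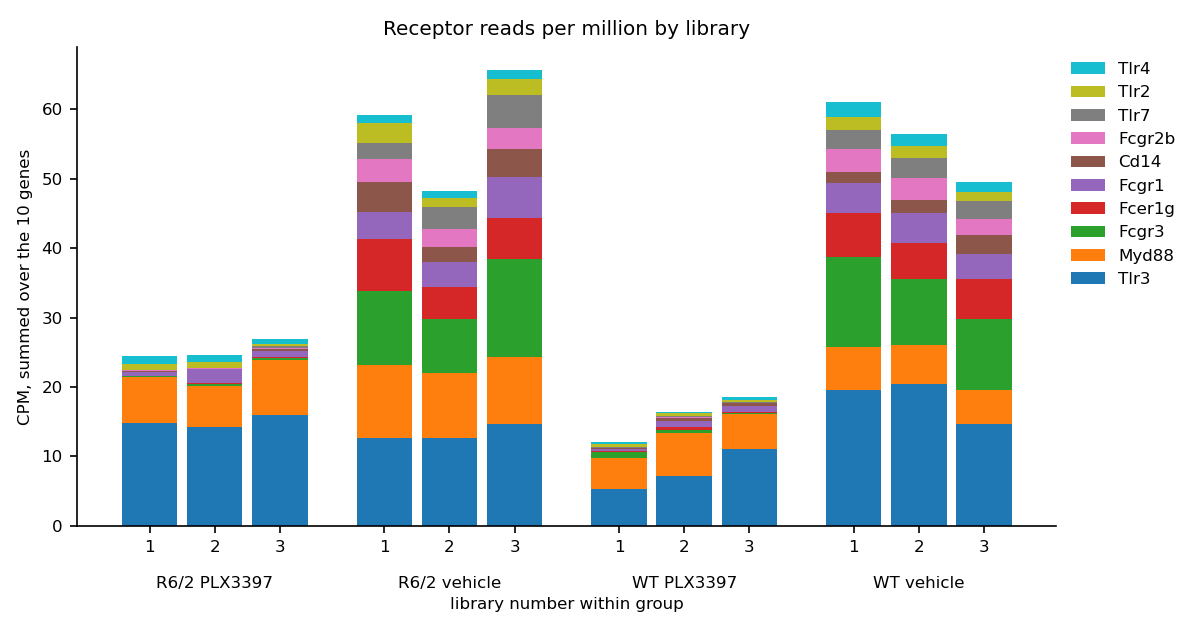
CPM of the 10 genes stacked by library, with 3 libraries per group on the horizontal axis and the summed CPM on the vertical axis. The PLX3397 columns reach 12.02 to 27.0 CPM and the vehicle columns 48.3 to 65.7 CPM, and Tlr3 with Myd88 fills most of each PLX3397 column.

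The first comparison asked what treatment with PLX3397 does to the receptor genes in each genotype. In R6/2 mice 5 of the 10 fell and in wild-type mice 9 of 10, with none called higher in either genotype. Fcer1g, Fcgr2b, Fcgr3, Tlr7 and Cd14 fell in both. Tests were made with limma, and genes were called at an adjusted p below 0.05 after Benjamini-Hochberg adjustment over all 15397 genes. Of all genes, 1.1% were called and 1.04% were called lower in R6/2, and 14.2% were called and 8.3% were called lower in wild type. The PLX3397 and vehicle groups did not overlap, with PLX3397 lower, for 8 receptor genes in R6/2 and 9 in wild type, compared with 11.9% and 17.3% of all genes. The median change of the 10 was -2.89 in R6/2 and -2.60 in wild type, beside -0.01 and 0.005 over all genes.

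On the log2 scale the largest falls among the 10 were those of Fcer1g and Fcgr3 in R6/2 and those of Fcgr3, Fcgr2b and Fcer1g in wild type. Fcer1g, the signalling chain shared by the activating receptors (NCBI gene 14127; GRCm38 chromosome 1, 171229572 to 171234349), had 2, 1 and 2 reads in the R6/2 libraries on PLX3397 against 197, 91 and 114 on vehicle. In wild-type libraries it had 5, 7 and 2 reads on PLX3397 against 115, 114 and 133 on vehicle. All drug-treated libraries were thus below all vehicle-treated ones, and CPM on the drug was 1.16% of that on vehicle in R6/2 and 3.85% in wild type. The log2 change was -5.23 ± 0.34 in R6/2 (SE; limma adjusted p = 3.3e-05) and -4.29 ± 0.34 in wild type (limma adjusted p = 0.000106). Such log2 changes understate the fall of genes with few reads, since a prior of 2 reads on average is part of the deposited values.

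Fcgr3, the low-affinity activating IgG receptor (gene 14131; chromosome 1, 171051169 to 171065915), had 2, 8 and 8 reads in R6/2 libraries on PLX3397 against 282, 154 and 274 on vehicle, and 15, 13 and 3 reads in wild-type libraries on PLX3397 against 236, 213 and 239 on vehicle. It changed by -5.07 ± 0.50 in R6/2 (limma adjusted p = 0.000389) and by -4.41 ± 0.50 in wild type (limma adjusted p = 0.000754), without overlap in either. Fcgr2b, the inhibitory IgG receptor (gene 14130; chromosome 1, 170960558 to 170976071), had 3, 3 and 4 reads in R6/2 libraries on PLX3397 against 88, 52 and 58 on vehicle, and 1, 2 and 1 reads in wild-type libraries on PLX3397 against 60, 72 and 56 on vehicle. Its change was -3.74 ± 0.30 in R6/2 (limma adjusted p = 0.000103) and -4.32 ± 0.30 in wild type (limma adjusted p = 3.25e-05). The inhibitory receptor thus fell in the same libraries as the activating one, again without overlap with vehicle. These genes share sequence: 9.58% of the 50-base stretches of Fcgr3 transcripts were also found in Fcgr2b transcripts, so reads could in part be assigned to either.

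Fcgr1, the high-affinity IgG receptor (gene 14129; chromosome 3, 96282909 to 96293969), had the widest range of reads on PLX3397 among the 4 Fc receptor genes. It had 12, 49 and 23 reads in R6/2 libraries on PLX3397 against 104, 73 and 116 on vehicle, and 3, 23 and 18 reads in wild-type libraries on PLX3397 against 77, 95 and 87 on vehicle. The groups did not overlap in either genotype. It fell in wild type, by 2.70 ± 0.58 on the log2 scale (limma adjusted p = 0.0178), and its change of -2.04 ± 0.58 in R6/2 was not called (limma adjusted p = 0.207), with a difference between the genotypes of 0.66 (95% interval -1.15 to 2.48).

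Among the Toll-like receptors and Cd14, Tlr7 and Cd14 fell in both genotypes. Tlr7, the receptor of single-stranded RNA (gene 170743; chromosome X, 167303380 to 167330574), had 0, 2 and 7 reads in R6/2 libraries on PLX3397 against 62, 63 and 92 on vehicle, and 3, 4 and 2 reads in wild-type libraries on PLX3397 against 49, 63 and 59 on vehicle. It changed by -4.20 ± 0.49 in R6/2 (limma adjusted p = 0.000956) and by -3.59 ± 0.49 in wild type (limma adjusted p = 0.00249). Cd14, which hands lipopolysaccharide to Tlr4 (gene 12475; chromosome 18, 36725064 to 36726815), had 6, 0 and 4 reads in R6/2 libraries on PLX3397 against 112, 41 and 78 on vehicle, and 3, 8 and 8 reads in wild-type libraries on PLX3397 against 29, 43 and 62 on vehicle. Its change was -4.08 ± 0.52 in R6/2 (limma adjusted p = 0.00179) and -2.50 ± 0.52 in wild type (limma adjusted p = 0.0159). Neither gene overlapped between drug and vehicle in either genotype.

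Tlr2, which binds bacterial lipoproteins (gene 24088; chromosome 3, 83836272 to 83841824), had 20, 19 and 6 reads in R6/2 libraries on PLX3397 against 76, 26 and 46 on vehicle, and 7, 10 and 5 reads in wild-type libraries on PLX3397 against 36, 38 and 32 on vehicle. The groups did not overlap in either genotype. It fell in wild type, by 2.03 ± 0.44 on the log2 scale (limma adjusted p = 0.0178), and its change in R6/2 was -1.73 ± 0.44 (limma adjusted p = 0.133), which was not called.

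Tlr4, the lipopolysaccharide receptor (gene 21898; chromosome 4, 66827551 to 66846581), was called in wild type and not in R6/2. It had 28, 24 and 19 reads in R6/2 libraries on PLX3397 against 31, 20 and 25 on vehicle, with overlap, and 6, 4 and 11 reads in wild-type libraries on PLX3397 against 37, 38 and 32 on vehicle, without overlap. Its change was -0.22 ± 0.35 in R6/2 (limma adjusted p = 0.792) and -2.13 ± 0.35 in wild type (limma adjusted p = 0.00725).

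Tlr3, the receptor of double-stranded RNA (gene 142980; chromosome 8, 45395665 to 45411075), showed the same division at a higher level. It stood at 14.8, 14.2 and 16.0 CPM in R6/2 mice on PLX3397 against 12.6, 12.7 and 14.7 CPM on vehicle, with overlap, and at 5.31, 7.13 and 11.1 CPM in wild-type mice on PLX3397 against 19.6, 20.4 and 14.7 CPM on vehicle, without overlap. Its change was 0.17 ± 0.24 in R6/2 (limma adjusted p = 0.76) and -1.26 ± 0.24 in wild type (limma adjusted p = 0.0128), to 43.1% of the CPM on vehicle. With a trend of GC content and exon length removed from every library, its change was -0.12 in R6/2 and -0.74 in wild type.

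Myd88, the adaptor of most Toll-like receptors (gene 17874; chromosome 9, 119335934 to 119340018), was not called with the drug in either genotype. It stood at 6.69, 5.93 and 7.84 CPM in R6/2 mice on PLX3397 against 10.6, 9.32 and 9.55 CPM on vehicle. In wild-type mice it stood at 4.49, 6.17 and 5.03 CPM on PLX3397 against 6.08, 5.63 and 4.96 CPM on vehicle. The R6/2 groups did not overlap and the wild-type groups did. The change was -0.53 ± 0.18 in R6/2 (limma adjusted p = 0.295) and -0.09 ± 0.18 in wild type (limma adjusted p = 0.755), with a 95% interval of -0.49 to 0.31 in wild type.

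Averaged over the genotypes, 7 of the 10 were called lower and none higher, beside 1.26% of all genes called, 1.25% lower and 0.00649% higher. The 7 were the 5 genes that fell in both genotypes with Fcgr1 (-2.37 ± 0.41; limma adjusted p = 0.0118) and Tlr2 (-1.88 ± 0.31; limma adjusted p = 0.00775). Tlr4 was just outside (-1.17 ± 0.25; limma adjusted p = 0.0517). Without R6/2 PLX3397 libraries 1 and 2, which leaves 1 library in that group and takes its spread from the other groups, the Fcgr1 change was -2.39 (limma adjusted p = 0.0538). An exact permutation of treatment within genotype (two-sided, 400 permutations, smallest possible p = 0.005) gave p = 0.005 for each of the 7, 0.01 for Tlr4, 0.045 for Myd88 and 0.11 for Tlr3.

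The 5 calls in R6/2 held in all 23 alternative settings. The 9 calls in wild type came down to 5 without wild-type vehicle library 1 or without library 2 of that group, when Tlr2, Tlr3, Fcgr1 and Cd14 were no longer called (adjusted p of 0.0637 to 0.0812), and to 6 in a limma fit of the 6 wild-type libraries alone, when Tlr3, Tlr4 and Fcgr1 were not called.

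**Figure D3:**
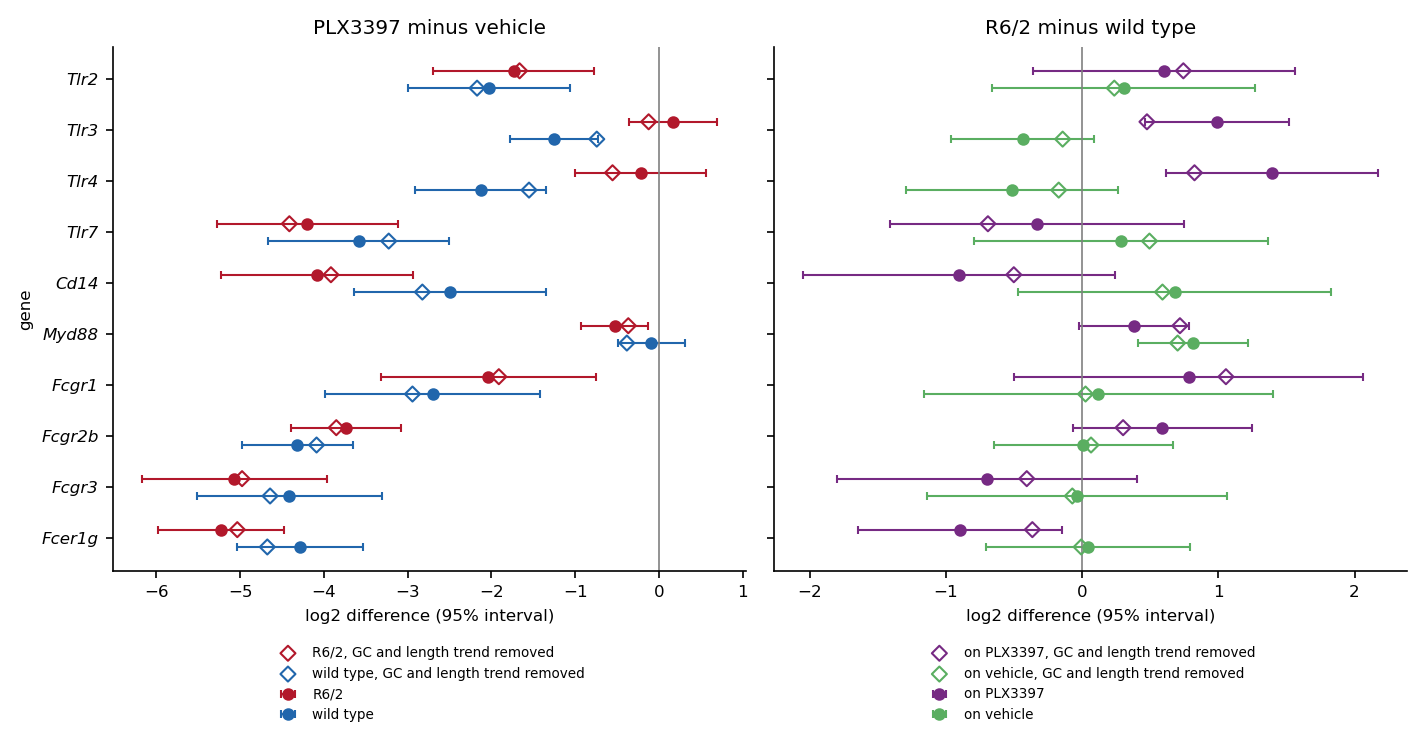
Log2 differences with their 95% intervals for PLX3397 minus vehicle (left) and R6/2 minus wild type (right), with 1 row per gene and R6/2 or PLX3397 drawn above wild type or vehicle. Open diamonds give the difference with a GC and length trend removed. In the left panel Tlr3 and Tlr4 lie near 0 in R6/2 and below 0 in wild type.

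The drug's changes in the receptor genes, averaged over the genotypes, were also set against the mean of the 24 microglial genes in the same library. These values are a description, since a gene that does not change lies far above a mean that falls: 99.7% of all genes were called against it by limma, 99.6% higher, with a median over all genes of 4.35. Myd88 was 4.04 above the microglial mean on the log2 scale (95% interval 3.39 to 4.69), Tlr3 3.81 (3.14 to 4.47), Tlr4 3.18 (2.28 to 4.08) and Tlr2 2.47 (1.58 to 3.36). Fcgr1 was 1.98 (1.11 to 2.85) and Cd14 1.06 (0.13 to 1.99) above it. For Tlr7 (0.46), Fcgr2b (0.32), Fcgr3 (-0.39) and Fcer1g (-0.41) the intervals held 0. The 24 microglial genes themselves ran from -2.09 to 3.74 around their mean, with 8 called higher and 13 lower. All 10 receptor genes except Myd88 and Tlr3 lay within the range of that list. Its upper part holds listed genes that fell less than the list's mean. A place within the range thus does not show a change like that of most microglial genes. The prior moves these differences most for genes near 0 reads. With a prior 4 times as large, Tlr7 was 1.01 and Fcgr2b 0.94 above the mean, and limma called both. Cd14 kept its limma call in 16 of 23 alternative settings.

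The second comparison asked how the receptor genes differ between R6/2 and wild-type mice without the drug. On vehicle 1 of the 10 was called, Myd88, beside 2.11% of all genes called, 0.617% called higher and 1.49% called lower. R6/2 was higher without overlap for 16.4% of all genes and lower without overlap for 17.1%. The Myd88 levels of 10.6, 9.32 and 9.55 CPM in R6/2 mice all lay above the 6.08, 5.63 and 4.96 CPM in wild-type mice, a change of 0.81 ± 0.18 or 1.76-fold (limma adjusted p = 0.0481). This call was kept in 8 of 23 alternative settings, with adjusted p of 0.036 to 0.18, and it was lost on leaving out any 1 of 10 libraries, 4 of them from the PLX3397 groups, which enter this comparison only through the shared estimate of spread. On the opposite strand Acaa1a overlaps 290 exon bases of Myd88, Gm45542 overlaps 381 of Tlr3 and Gm38204 overlaps 155 of Fcgr2b. The strand setting of the counting was not given in the sources used here, so reads there cannot be told apart.

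The other 9 receptor genes were not called on vehicle. Their changes ran from -0.51 for Tlr4, whose groups did not overlap (limma adjusted p = 0.41; R6/2 lower), to 0.68 for Cd14 (limma adjusted p = 0.463). Among the genes that fell to a few reads with the drug, Fcgr3 differed by -0.04 (95% interval -1.14 to 1.06), Tlr7 by 0.28 (-0.79 to 1.36), Fcer1g by 0.04 (-0.71 to 0.79) and Fcgr2b by 0.01 (-0.65 to 0.67). These intervals hold both rises and falls.

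The third comparison asked how the genotypes differ on PLX3397. Tlr3 and Tlr4 were called higher in R6/2, beside 35.0% of all genes called and 17.1% called higher. Calls were thus no more frequent among the 10 receptor genes than among all genes. Tlr3 differed by 0.99 ± 0.24 (limma adjusted p = 0.0106) and Tlr4 by 1.39 ± 0.35 (limma adjusted p = 0.0129), and neither overlapped between genotypes, as was so with R6/2 higher for 22.6% of all genes. Both calls were lost when the GC and length trend was removed (0.48 with limma adjusted p = 0.0695 for Tlr3, 0.82 with 0.103 for Tlr4), in a fit of the 6 PLX3397 libraries alone (0.0525 and 0.0694), and without R6/2 PLX3397 libraries 1 and 2 (0.141 and 0.24), when 1 library of that group remained, assumed to vary like the other groups, and the differences were 1.08 and 1.15. Myd88 was called higher with the GC and length trend removed (0.72; limma adjusted p = 0.00972) and not otherwise (0.38; limma adjusted p = 0.125). Fcgr2b was also higher in R6/2 without overlap and was not called (0.59; limma adjusted p = 0.144, or 0.025 with no intensity trend), with 3 to 4 reads in R6/2 libraries against 1 to 2 in wild-type libraries. Fcer1g was lower in R6/2 without overlap, as were 24.2% of all genes, and was not called (-0.90, limma adjusted p = 0.0612). It had 1 to 2 reads in R6/2 libraries against 2 to 7 in wild-type libraries. Fcer1g was called without wild-type PLX3397 library 3 (limma adjusted p = 0.018), with no intensity trend (0.0307) and with the smaller prior (0.0363).

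The drug's change differed between genotypes for Tlr3 and Tlr4, by the interaction (the change in R6/2 minus the change in wild type). Of all genes 17% were called, 9.29% higher and 7.71% lower, so calls were about as frequent among the 10 receptor genes. The interaction was 1.43 ± 0.34 for Tlr3 (limma adjusted p = 0.0225) and 1.91 ± 0.50 for Tlr4 (limma adjusted p = 0.0302). For the other 8 it was not called and ran from -1.58 for Cd14 (95% interval -3.20 to 0.04) to 0.66 for Fcgr1. Transcripts of Tlr3 and Tlr4 are 40.03% and 39.4% GC, those of Tlr7 41.0%, and those of the other 7 genes 45.4% to 53.5%. The Tlr7 interaction was -0.61 (limma adjusted p = 0.547). It rests on 0 to 7 reads in R6/2 libraries on PLX3397 and 2 to 4 in wild-type ones, which limits what it shows. Across genes the interaction was related to GC content with a Spearman's rho of -0.56. Whether GC content is a cause of the Tlr3 and Tlr4 interactions was not tested. With the GC and length trend removed the interaction was 0.62 for Tlr3 (limma adjusted p = 0.164) and 1.00 for Tlr4 (limma adjusted p = 0.244), and neither was called. Neither was called without R6/2 PLX3397 library 1 or 2, R6/2 vehicle library 1 or wild-type vehicle library 1 or 2 (adjusted p of 0.0506 to 0.0815), and Tlr4 was not called without R6/2 vehicle library 2 (adjusted p = 0.058).

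The 3 genes of the whole table whose pattern over the 12 libraries was most like that of Tlr4 were Pon3, Aqp4 and Abhd15 (root mean square difference of 0.32, 0.38 and 0.41 on the log2 scale after each gene was set to its wild-type vehicle mean). Aqp4, the water channel of astrocytes, is also on the astrocyte list. Aqp4 stood at 6.71, 6.49 and 6.65 log2 CPM in R6/2 mice on PLX3397 against 6.84, 6.34 and 6.89 on vehicle, and at 5.77, 5.51 and 6.28 in wild-type mice on PLX3397 against 7.56, 7.81 and 6.76 on vehicle. It fell with the drug in wild type (-1.53 ± 0.27; limma adjusted p = 0.0102), and its interaction was 1.46 ± 0.38 (limma adjusted p = 0.0304). Because Aqp4 was picked for its likeness to Tlr4 in these same libraries, changes like those of Tlr4 were built into the choice. Its values are a description and no separate evidence about Tlr4. Of the 10 astrocyte markers, 2 were called lower with the drug in wild type, Aqp4 and Gja1, and none in R6/2. In the interaction the same 2 were called higher and 8 were not called, with a median of 0.19 and a range from -1.30 for Gfap (limma adjusted p = 0.276) to 1.46 for Aqp4. The summed level of the 10 was 2795 to 3668 CPM in R6/2 mice on PLX3397 against 3031 to 3977 on vehicle, and 3455 to 4458 CPM in wild-type mice on PLX3397 against 4719 to 5927 on vehicle. The part of astrocyte RNA in the Tlr3 and Tlr4 results was not tested.

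Measured in the same way, the other 9 genes had these nearest patterns. For Fcer1g the most similar genes were Cd300c2, Vav1 and Fcgr3 (root mean square difference 0.37 to 0.45), for Fcgr3 they were Cd300c2, Vav1 and Fcer1g (0.41 to 0.45), and for Fcgr2b Cd86, Themis2 and Hcls1 (0.31 to 0.36). For Tlr7 they were Hcls1, Itgb2 and Susd3 (0.47 to 0.51), for Tlr2 Nfam1, Lyn and Apbb1ip (0.38 to 0.43), for Cd14 Fermt3, Was and Cyth4 (0.61 to 0.68) and for Fcgr1 Lcp2, Arhgap9 and Tmem173 (0.60 to 0.68). Tlr3 was most like Lonrf3, Trp53inp1 and Lims1 (each 0.19) and Myd88 most like Ifngr2, Colgalt2 and Glrx (0.17 to 0.18).

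Other genes of the pathways were followed by list. Of 14 other Toll-like receptors and co-receptors 8 were measured, and 4 fell with the drug in R6/2 and 5 in wild type. Cd180, a Toll-like receptor homologue, had 3, 0 and 2 reads in R6/2 libraries on PLX3397 against 82, 38 and 59 on vehicle, and 0, 0 and 1 reads in wild-type libraries on PLX3397 against 45, 84 and 53 on vehicle (-4.18 ± 0.43 in R6/2 and -4.77 ± 0.43 in wild type; limma adjusted p = 0.000398 and 0.000215). Tlr13, a receptor of bacterial ribosomal RNA, changed by -4.61 ± 0.46 in R6/2 and -4.59 ± 0.46 in wild type. Unc93b1, which carries Tlr3, Tlr7 and other receptors to endosomes, changed by -2.03 ± 0.22 and -1.73 ± 0.22, and Ly86, the partner of Cd180, by -5.84 ± 0.74 and -4.98 ± 0.74 (limma adjusted p of at most 0.0042 for these 3 in both genotypes). Ly96, the partner of Tlr4 in binding lipopolysaccharide, was not called with the drug in R6/2 (-0.30) or wild type (-0.83), and was higher in R6/2 than in wild type on PLX3397 (1.22 ± 0.37; limma adjusted p = 0.0266). In that comparison Lbp, which brings lipopolysaccharide to Cd14, was lower (-3.32 ± 0.95; limma adjusted p = 0.021), with 6, 6 and 28 reads in R6/2 libraries against 180, 208 and 33 in wild-type libraries, and the other 6 were not called.

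Of the adaptors and kinases below the Toll-like receptors 20 were measured. None of them was called with the drug in R6/2, and in wild type 2 fell, Traf3 (-0.61 ± 0.16) and Chuk (-0.95 ± 0.26), and Tab1 rose (0.41 ± 0.11). The 20 had a median change of 0.05 in R6/2 and -0.09 in wild type. Of 11 transcription factors, Irf5, which Myd88 activates, fell in both genotypes (-2.64 ± 0.37 in R6/2 and -3.54 ± 0.37 in wild type; limma adjusted p = 0.00318 and 0.000515), and Irf8, a factor of the myeloid lineage, fell in R6/2 (-3.56 ± 0.48; limma adjusted p = 0.00241) while its change in wild type was -1.28 (limma adjusted p = 0.088). Of 5 measured targets of NF-kB, none was called in wild type, and in R6/2 the adhesion molecule Icam1 fell (-1.41 ± 0.29; limma adjusted p = 0.0472).

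Of 11 other Fc receptor genes 4 were measured. Fcrls, an Fc receptor-like gene of microglia, fell by 5.72 ± 0.61 on the log2 scale in R6/2 and by 4.85 ± 0.61 in wild type (limma adjusted p = 0.00055 and 0.00162). Fcgrt, the neonatal Fc receptor that recycles IgG, was not called with the drug in either genotype (-0.65 in R6/2, 0.52 in wild type), and its interaction was -1.17 ± 0.35 (limma adjusted p = 0.0446). Of 21 measured genes of Fc receptor signalling, 13 fell in R6/2 and 14 in wild type, with median changes of -2.07 and -1.92. Vav1, an exchange factor for Rac proteins, changed by -5.16 ± 0.36 in R6/2 and -4.14 ± 0.36 in wild type (limma adjusted p = 4.39e-05 and 0.000187), and Lyn, the kinase that phosphorylates the tyrosine motifs, by -1.94 ± 0.25 and -2.05 ± 0.25 (limma adjusted p = 0.00179 and 0.0012). Tyrobp, a signalling chain related to Fcer1g, changed by -5.73 ± 0.69 and -5.16 ± 0.69 (limma adjusted p = 0.00118 and 0.00232).

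**Figure D4:**
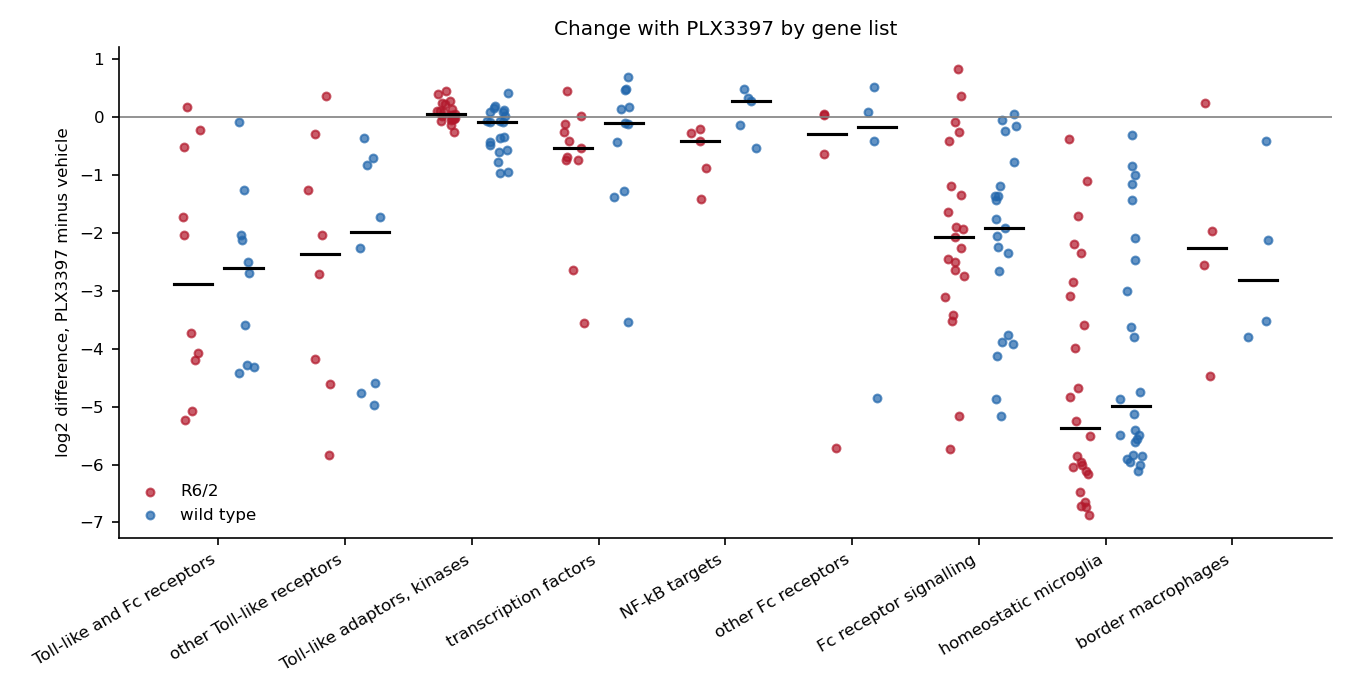
Log2 difference, PLX3397 minus vehicle, of each measured gene of the receptor set and of 8 related lists, with 1 point per gene and genotype and a bar at the median. The Toll-like adaptors and kinases lie near 0. The receptor, other Toll-like receptor, other Fc receptor, Fc receptor signalling, microglial and border macrophage lists reach below -4.

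Interferon-stimulated genes were followed beside Myd88 because Toll-like receptors such as Tlr3 and Tlr7 induce interferon. Of 19 measured, 9 were higher in R6/2 than in wild type on vehicle and 12 on PLX3397, with medians of 1.02 and 1.07. Of all genes 0.617% were called higher on vehicle and 17.1% on PLX3397, so these counts cannot be compared directly. With the drug itself none of the 19 was called in R6/2, and 1, Trim30a, fell in wild type (-0.78 ± 0.21; limma adjusted p = 0.0352). Among the factors and targets below the receptors, Irf7 was 2.56 ± 0.23 higher in R6/2 on vehicle (limma adjusted p = 0.00368) and Icam1 1.46 ± 0.29 higher (limma adjusted p = 0.0366).

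Markers of other cells that could hold these receptors were set beside the results. Of the border macrophage list 4 of 10 genes were measured, with a summed level of 3.57 to 14.9 CPM in R6/2 mice on PLX3397 against 15.5 to 28.0 on vehicle, and 5.78 to 11.7 CPM in wild-type mice on PLX3397 against 18.8 to 27.1 on vehicle. With the drug 2 of the 4 were called lower in R6/2 and 3 in wild type. Mrc1, their mannose receptor, fell by 4.48 ± 0.41 on the log2 scale in R6/2 and by 3.79 ± 0.41 in wild type (limma adjusted p = 0.000257 and 0.000626). Stab1, a scavenger receptor, changed by -1.98 ± 0.38 and -2.13 ± 0.38 (limma adjusted p = 0.0305 and 0.0105). F13a1, a coagulation factor subunit, fell in wild type (-3.52 ± 0.66; limma adjusted p = 0.0126) and was not called in R6/2 (-2.55 ± 0.66; limma adjusted p = 0.149), and Cd163, a haemoglobin scavenger receptor, was called in neither (0.25 ± 0.73 in R6/2, -0.41 ± 0.73 in wild type). The 1 measured gene of the monocyte and neutrophil list, the cytokine receptor Csf3r, had 4, 5 and 15 reads in R6/2 libraries on PLX3397 against 148, 125 and 189 on vehicle, and 12, 6 and 3 reads in wild-type libraries on PLX3397 against 163, 195 and 163 on vehicle. It fell in both genotypes (-4.22 ± 0.48 in R6/2 and -4.41 ± 0.48 in wild type; limma adjusted p = 0.000718 and 0.000626). As 1 of 10 listed genes, Csf3r cannot by itself stand for monocytes or neutrophils. Of the lymphocyte and mast cell list 2 of 14 genes were measured. In R6/2 mice they summed to 26.8 to 38.7 CPM on PLX3397 against 37.5 to 49.6 on vehicle. In wild-type mice they summed to 102.5 to 252.8 CPM on PLX3397 against 60.7 to 130.0 on vehicle. These 2 of 14 listed genes cannot by themselves stand for lymphocytes or mast cells. The microglial list was at 63.7 to 89.5 CPM in R6/2 mice on PLX3397 against 629 to 882 on vehicle, and at 68.8 to 97.2 CPM in wild-type mice on PLX3397 against 671 to 779 on vehicle. No gene of these lists was at 0 reads in a whole group. How much of the change in the receptor genes belongs to any of these cell types was not tested.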

How the data were processed

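RNA of microdissected striatum from 12 mice was sequenced with TruSeq libraries, per the labels' protocols. The submitters' processing notes name STAR, featureCounts, edgeR, limma and the mouse build mm10, without versions or settings. The authors deposited 1 table of log2 values that its name calls RPKM. Its values are log2 CPM (reads scaled to library size) with an average prior of 2 reads, and whole reads were recovered from them to within 0.1 read for all genes. Groups were taken from the labels. Log2 values were compared with limma 3.58.1 in R 4.3.3, using a group-means model over all 12 libraries, an intensity trend, two-sided tests and Benjamini-Hochberg adjustment over 15397 genes, with calls below an adjusted p of 0.05. The microglial comparison subtracted the mean of 24 microglial genes in each library. An exact permutation of treatment within genotype was added after the data had been seen, and is reported for the changes averaged over genotype. The steps were tested on simulated data.

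Levels per kilobase, GC content and positions used the GRCm38 annotation, and length and GC were known for 14305 genes (92.9%). Length was that of a gene's merged exons, and GC content that of its longest transcript. The 10 genes and the lists were chosen with earlier results of these data known. All 10 are named, with up to 4 genes of the smallest p per list and comparison, and the 3 genes whose values differ least from each over the 12 libraries, leaving out predicted genes and pseudogenes. Alternatives were each library left out, a replicate block, fits of 6 libraries, no intensity trend, other scaling, other priors, a minimum mean of 1 CPM, limma-voom on the recovered reads, values freed of a trend with GC and length, libraries with low Slc17a7 or high Ttr left out, and other microglial references. Tables used Python 3.11.15 with pandas 2.3.3, numpy 2.4.6 and scipy 1.17.1, and plots matplotlib 3.10.9.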

Additional observations from a re-analysis of the deposited data

Results flagged for a closer look

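The change with PLX3397 differed between R6/2 and wild-type mice by the interaction test for Tlr3 (interaction 1.43, limma adjusted p = 0.0225) and for Tlr4 (interaction 1.91, limma adjusted p = 0.0302). These were 2 of the 10 genes, a share near the 17% of all genes called. The call was kept in 15 of 22 alternative settings for Tlr3 and in 12 of 22 for Tlr4. With the GC and length trend removed both calls were lost (limma adjusted p = 0.164 and 0.244).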

How the results depend on the processing

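Few reads on PLX3397 limit the precision for Fcer1g, Fcgr2b, Fcgr3, Tlr7 and Cd14, and 3 mice per group that for all genes. In R6/2, 5 of the 10 genes were called with the drug under every alternative. Leaving out 1 library at a time gave 5 to 9 called genes for the drug in wild type, 0 to 1 for genotype on vehicle and 0 to 2 for the interaction. For genotype on vehicle 0 were called with the replicate block, with 6 libraries, with limma-voom, without the low Slc17a7 libraries and without the high Ttr libraries. For genotype on PLX3397 the count of 2 became 4 with no intensity trend, 1 after removal of the GC and length trend, and 0 with 6 libraries or without the low Slc17a7 libraries. For the interaction it became 1 with the replicate block or without the high Ttr libraries, and 0 after removal of the GC and length trend or without the low Slc17a7 libraries. Fewer samples enter the fits that leave libraries out; for the other settings the cause was not tested. No pairing of mice by replicate number was seen: deviations of same-numbered libraries correlated above 0.1 in 3 of 18 pairs (-0.32 to 0.40). Their median correlation was -0.03, beside 0.04 for libraries with different numbers. With 3 libraries per group, these correlations cannot exclude a pairing.

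None of the changes that turned direction was called by limma as reported. On leaving out single libraries, the difference between genotypes on vehicle ran from -0.13 to 0.21 for Fcer1g, -0.14 to 0.094 for Fcgr2b, -0.25 to 0.18 for Fcgr3 and -0.094 to 0.25 for Fcgr1. That on PLX3397 ran from -0.87 to 0.18 for Tlr7, the interaction from -0.018 to 0.75 for Tlr2 and -0.027 to 1.13 for Fcgr1, and the drug's change in wild type from -0.22 to 0.0098 for Myd88. With the GC and length trend removed, Tlr3 was -0.12 with the drug in R6/2, Fcer1g -0.0074 between genotypes on vehicle, and Myd88 0.017 in the interaction. Without the low Slc17a7 libraries, Tlr2 was -0.31 and Tlr7 0.76 between genotypes on PLX3397, and -0.61 and 0.47 in the interaction. Without the high Ttr libraries, Myd88 was 0.0098 with the drug in wild type, Fcer1g -0.13 and Fcgr2b -0.071 between genotypes on vehicle, and Fcgr1 -0.11 in the interaction. Relative to the microglial genes, Fcer1g was 0.16 with the larger prior, Fcgr2b -0.048 with the smaller one, and Fcgr3 0.25 and Fcer1g 0.23 against the median of that list.

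Over all genes, 2191 were called with the drug in wild type (913 higher, 1278 lower), against 1022 (557 higher, 465 lower) with the GC and length trend removed, 351 with 6 libraries, 1110 with the replicate block, 1317 without the low Slc17a7 libraries, 3560 without the high Ttr libraries and 228 to 2716 on leaving out single libraries. In R6/2, 169 were called, against 98 with 6 libraries, 58 without the low Slc17a7 libraries and 125 to 381 on leaving out single libraries. Between genotypes on vehicle 325 were called, against 40 with the replicate block, 564 with the GC and length trend removed, 145 with limma-voom, 103 without the high Ttr libraries and 1 to 561 on leaving out single libraries. On PLX3397 5389 were called, against 2934 with 6 libraries, 237 without the low Slc17a7 libraries and 3383 to 5630 on leaving out single libraries. For the interaction 2617 were called, against 710 with the GC and length trend removed, 1432 with the replicate block and 537 to 3532 on leaving out single libraries; without the low Slc17a7 libraries limma called 0 (2599 at an unadjusted p under 0.05).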
